A study of Mus musculus with 24 samples.

Results

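A set of 10 classical immediate early genes was followed through the RNA-seq data: Fos, Fosb, Jun, Junb, Jund, Egr1, Ier2, Dusp1, Nr4a1 and Klf6. They were taken by gene symbol from the deposited count table, which held all 10 of them among 39253 genes, and all 10 passed the filter on low counts that left 13901 genes for testing. The cells were Neuro2A, a wild-type mouse neuroblastoma line, in 8 groups of 3 independent cultures. 6 groups were transiently transfected with a plasmid that encoded RfxCas13d, its high-fidelity variant HiFi-RfxCas13d or DiCas7-11, each with a crRNA against mouse ataxin-2 (mATXN2) or a non-targeted (NTG) crRNA, and were collected after 48 hr. The remaining groups were untransfected cells and a positive control treated with an antisense oligonucleotide (ASO) to ataxin-2, whose dose and way of delivery the labels do not give. For the RNA-seq the paper names crRNA-10 and a NTG crRNA with each effector, and the labels give the same. The column names of the table call the control arm by another name and number the mATXN2 crRNA differently. This mismatch is not settled by the sources used here. The arms are called NTG and mATXN2 here, after the labels. Transient transfection reaches only some of the cells of a culture, and the labels name no group given the transfection reagent alone or an oligonucleotide without a target.

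Immediate early genes are switched on within minutes of a stimulus, without new protein synthesis, through kinases of the MAPK family and the transcription factors SRF, ELK1 and CREB. Their mRNAs are mostly short-lived, and the level of a short-lived mRNA at any time mostly reflects recent transcription. Most of them encode transcription factors: FOS, FOSB, JUN, JUNB and JUND pair up as AP-1, EGR1 and KLF6 are zinc finger proteins, and NR4A1 is an orphan nuclear receptor. DUSP1 is a phosphatase that switches MAP kinases off again, and IER2 is a small nuclear protein. In neurons and neuroblasts they are widely used as marks of activity, growth factor signals and stress.

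The promoters of 5 members are shown because 4 of these genes rose with transfection and the fifth, Dusp1, passed no test. Each is the run of 250 bases that ends just before the transcription start, on the strand of the gene, from RefSeq on GRCm38.p6, a build older than the GRCm39 to which the authors mapped. Capitals mark the core of the cAMP response element, TGACG, on either strand, the EGR site GCGNGGGCG on either strand, and the TATA box TATAAA on the strand of the gene.
Fos, chr12:85473640-85473889, plus strand: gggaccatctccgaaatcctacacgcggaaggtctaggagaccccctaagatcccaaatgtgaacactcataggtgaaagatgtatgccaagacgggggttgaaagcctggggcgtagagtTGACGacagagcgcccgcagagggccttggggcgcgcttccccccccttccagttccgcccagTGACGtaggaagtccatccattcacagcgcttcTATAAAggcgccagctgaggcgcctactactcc
Fosb, chr7:19310046-19310295, minus strand: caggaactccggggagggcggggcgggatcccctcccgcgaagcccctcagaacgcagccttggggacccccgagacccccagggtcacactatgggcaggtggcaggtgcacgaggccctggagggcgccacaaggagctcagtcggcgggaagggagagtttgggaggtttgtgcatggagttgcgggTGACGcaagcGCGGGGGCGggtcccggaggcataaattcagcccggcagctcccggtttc
Junb, chr8:84978749-84978998, minus strand: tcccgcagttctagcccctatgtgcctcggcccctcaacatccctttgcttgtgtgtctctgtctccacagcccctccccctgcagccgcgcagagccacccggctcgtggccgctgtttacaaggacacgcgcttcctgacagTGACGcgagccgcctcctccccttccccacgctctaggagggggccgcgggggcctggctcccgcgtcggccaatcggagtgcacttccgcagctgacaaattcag
Nr4a1, chr15:101266596-101266845, plus strand: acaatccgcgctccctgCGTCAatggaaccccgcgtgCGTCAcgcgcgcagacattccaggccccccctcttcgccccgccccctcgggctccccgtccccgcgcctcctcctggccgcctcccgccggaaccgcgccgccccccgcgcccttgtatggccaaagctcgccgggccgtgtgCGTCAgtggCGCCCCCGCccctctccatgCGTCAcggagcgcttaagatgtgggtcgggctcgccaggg
Dusp1, chr17:26508473-26508722, minus strand: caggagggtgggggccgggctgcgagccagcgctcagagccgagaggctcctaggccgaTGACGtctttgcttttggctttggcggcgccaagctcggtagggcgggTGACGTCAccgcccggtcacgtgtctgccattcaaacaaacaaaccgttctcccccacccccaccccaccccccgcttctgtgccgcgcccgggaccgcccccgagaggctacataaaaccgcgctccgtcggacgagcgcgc

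RefSeq windows were found for 8 of the 10 members, all but Egr1 and Ier2, and 7 were read. The window of Jund was left out because it starts 1210 bases from the nearest start of a protein-coding Jund transcript in GENCODE, and the window of Junb starts 30 bases from it. TGACG was present in 5 of the 7 windows, those shown, and absent from Jun and Klf6, while 17.8% of 32851 promoters of the same length held it. Nr4a1 carried 4 such cores and Dusp1 carried 3, of which 2 overlap as the palindrome between bases -143 and -136. The Fos window holds 2 cores, at -129 to -125 and -66 to -62, above its TATA box at -33 to -28, a motif present in 7.59% of promoters. The EGR site occurred in Fosb and Nr4a1 and in 4.7% of promoters. No match was found in the 7 windows for the AP-1 site TGANTCA, present in 6.75% of promoters, or for the CArG box, the binding sequence of SRF, present in 1.47%. These matches describe the letters of the windows only.

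Library totals ran from 12665725 to 22504999 counts. The 3 ASO libraries were the deepest, from 21874644 counts, and the other 21 stayed at or under 19857305. Levels are given as CPM, counts scaled to the size of the library after TMM normalization, and are compared between genes only as CPM per kb of transcript. Per kb, Jund was the most abundant member in untransfected cells at 36.5, ahead of Ier2 at 18.9, Jun at 18.2, Egr1 at 14.6, Junb at 12.2, Klf6 at 8.33, Dusp1 at 7.24 and Nr4a1 at 5.53. Fos and Fosb stood far below them, at 1.195 and 0.212. Fos was counted 25 to 105 times in a library and Fosb 10 to 35 times, so that counting alone gives an error of 12.8% and 21.9% at their median counts, against 3.05% for Egr1. Of the neuroblast markers, 13 of 14 passed the filter, with Hand2 at 359 to 415 CPM and Th at 0.454 to 1.42 CPM. Their summed level was 2522 to 2552 CPM in untransfected cells and 2333 to 2519 CPM in the other 7 groups. The fibroblast list summed to 15.6 to 15.9 CPM in untransfected cells and 10.4 to 13.98 CPM in the others, with 3 of 7 markers past the filter and Col1a2, Col3a1 and Lum at a median of 0. The immune list summed to 1.11 to 2.47 CPM with the ASO and at most 0.835 CPM elsewhere, with 1 of 6 markers past the filter, Cd68, and Ptprc at a median of 0. Of the astrocyte, oligodendrocyte and endothelial lists, 0 of 4, 2 of 4 and 2 of 4 markers passed the filter. These sums move with the comparisons to untransfected cells and to the ASO, and their part in the results was not tested. In bulk RNA, fewer cells of a type and less RNA per cell cannot be told apart.

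**Figure D1:**
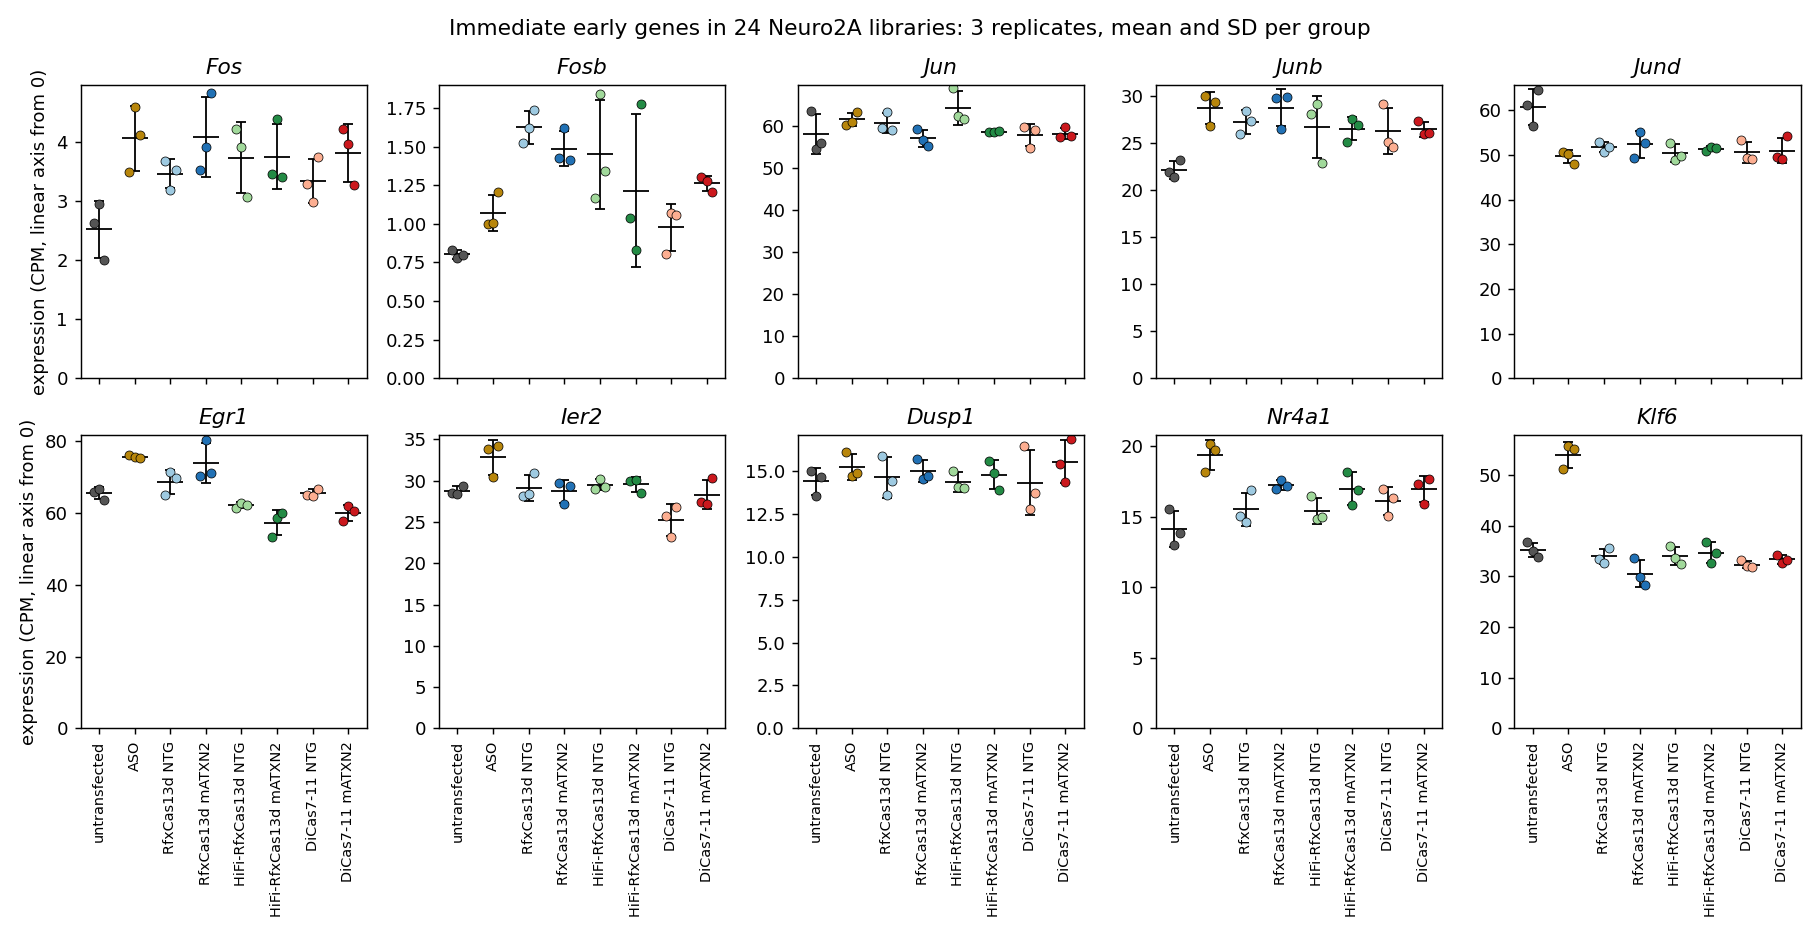
CPM of each immediate early gene in the 24 libraries, by group, with points for the 3 replicates and bars for mean and SD on linear axes that start at 0. The 3 ASO libraries of Klf6 lie at 51.1 to 55.7 CPM, above all other libraries, and Jund is highest in the untransfected libraries, at 56.6 to 64.7 CPM.

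Across the 8 groups, 7 of the 10 members differed by edgeR's F test: Fosb, Junb, Jund, Egr1, Ier2, Nr4a1 and Klf6. The background was 50.3% of all tested genes, so 7 of 10 is not far above it. Klf6 had the smallest adjusted p of the members, 9.62e-12, followed by Egr1 at 1.46e-07. Fos missed the threshold of 0.05 with an adjusted p of 0.0544, Jun with 0.0597 and Dusp1 with 0.809. The ratio of the highest to the lowest group mean was 2.02 for Fosb, 1.77 for Klf6, 1.62 for Fos and 1.37 for Nr4a1. It was 1.08 to 1.32 for Jun, Junb, Jund, Egr1, Ier2 and Dusp1. When groups were ordered by their mean, few neighbours in the order were separated beyond the spread of their replicates. Of the 7 neighbouring pairs, none had separate ranges for Fosb and Dusp1, 2 had for Ier2 and 1 had for each of the other members. The share of all tested genes with separate ranges was not counted, here or where overlap is given below.

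The AP-1 subunits changed in opposite directions with transfection. Against untransfected cells, the mean of the 6 transfected groups was 1.44 times higher for Fos, 1.65 times for Fosb and 1.22 times for Junb, and 0.845 times for Jund, while Jun did not pass the test. Including Nr4a1, 5 of 10 members passed, against a background of 27.4%. The members' median log2 change was 0.03 and that of all genes -0.01.

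Fos, the partner that makes AP-1 dimers with JUN proteins, was measured at 2.63, 2.94 and 1.99 CPM in untransfected cells and at 2.98 to 4.82 CPM in the 18 transfected libraries, with a median of 3.60. All 18 lay above the highest untransfected library. Its log2 change was 0.53 ± 0.15 (SE), with an adjusted p of 0.00818. Without untransfected replicate 3, the lowest of the 3, the log2 change was 0.40 and the adjusted p 0.086. Fosb, a FOS relative with a longer-lived splice form known from chronically stimulated neurons, read 0.834, 0.779 and 0.796 CPM in untransfected cells. In transfected libraries it ranged from 0.804 to 1.85 CPM with a median of 1.32, and 16 of 18 lay above the untransfected ones. The log2 change was 0.72 ± 0.24 (SE), with an adjusted p of 0.0232, which rose to 0.0706 to 0.0964 when any untransfected library was left out, to 0.0664 with DESeq2 and to 0.0637 with no filter on low counts.

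Junb, a JUN family member that binds AP-1 sites more weakly than JUN, was at 21.9, 21.3 and 23.2 CPM in untransfected cells and at 22.9 to 29.9 CPM, with a median of 27.1, in transfected ones. Of the 18, 17 exceeded the untransfected libraries, and HiFi-RfxCas13d NTG replicate 3 did not. The log2 change was 0.29 ± 0.06 (SE; adjusted p = 0.000951). The gene overlaps Prdx2 on the opposite strand, which has a mean of 4100 counts a library, and the library kit keeps the strand, but the strand setting of the counting is not given in the sources used here. Jund, the JUN family member that is expressed in resting cells and restrains growth, was at 61.2, 56.6 and 64.7 CPM in untransfected cells. All 18 transfected libraries lay below them, at 48.9 to 55.3 CPM with a median of 51.2. Jund fell by 0.24 ± 0.04 (SE) on the log2 scale, with an adjusted p of 2.72e-05. Junb and Jund passed the threshold in all 31 alternative analyses of this comparison.

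Jun showed no such shift: untransfected libraries read 63.5, 54.6 and 56.0 CPM, and 1 of 18 transfected libraries lay above that range and none below it. Nr4a1 was at 15.5, 13 and 13.9 CPM in untransfected cells and at 14.7 to 18.2 CPM, with a median of 16.7, after transfection, with 13 of 18 libraries above the untransfected range. Its log2 change was 0.21 ± 0.06 (SE; adjusted p = 0.014). Without untransfected replicate 2 the adjusted p was 0.176, and without replicate 3 it was 0.0598. The count of 5 members fell to 3 without untransfected replicate 2 and to 2, Junb and Jund, without replicate 3. Shares of all genes called with a library left out are not given, here or below. Such drops therefore cannot be read as particular to the members.

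**Figure D2:**
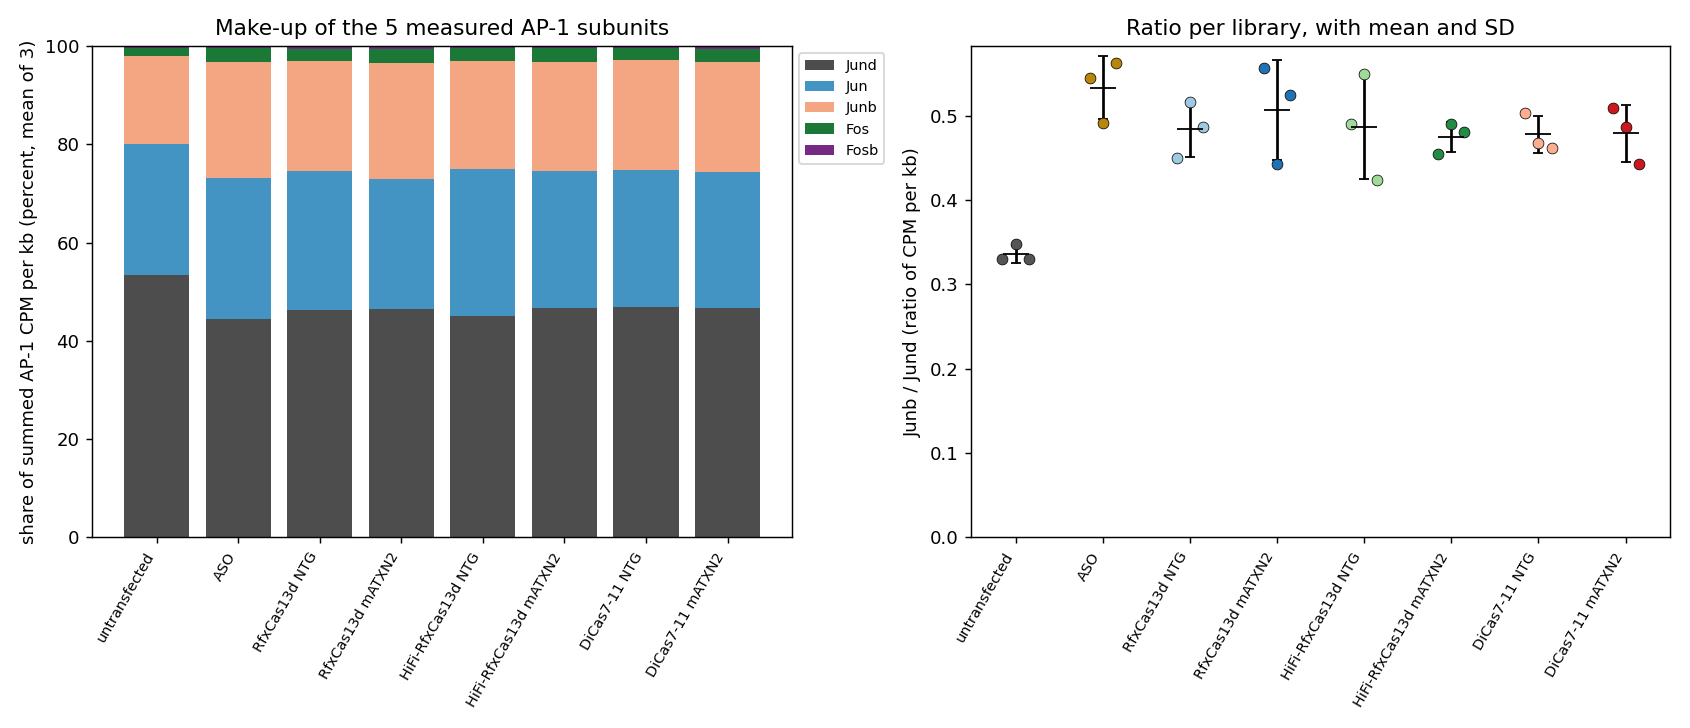
Left, the mean share of each of the 5 AP-1 subunits in their summed CPM per kb, in percent, for the 8 groups of 3 libraries. Right, the ratio of Junb to Jund in CPM per kb in each library, with mean and SD, which is 0.33 to 0.348 in untransfected cells and 0.424 or more in the other 21 libraries.

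The make-up of the AP-1 subunits showed this on a scale where library size cancels out. In untransfected cells Jund made up 52.3%, 52.6% and 55.2% of the summed CPM per kb of the 5 subunits, and Junb 17.2%, 18.3% and 18.2%. In the 18 transfected libraries Jund made up 43.5% to 48.9% and Junb 19.9% to 24.7%. With the ASO, Jund made up 42.9% to 45.4% and Junb 22.3% to 24.4%. The ratio of Junb to Jund was 0.33, 0.348 and 0.33 in untransfected cells, 0.424 to 0.556 in transfected cells with a median of 0.486, and 0.545, 0.491 and 0.562 with the ASO. The untransfected range did not overlap with the others. Both genes had passed the test, so the ratio is given as a description. Fosb stayed under 1% of the sum in every library, at most 0.725%.

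Effector by effector, the NTG arms were compared with the same 3 untransfected libraries, so the comparisons share their controls. The mATXN2 arms entered through the mean of the 6 groups and were also compared with these libraries, as given last. With RfxCas13d NTG, 3 of 10 members passed, against a background of 11.3%: Fosb, Junb and Jund. With HiFi-RfxCas13d NTG, 5 of 10 passed, against 20.9%, with Fos and Jun in addition to these. With DiCas7-11 NTG, 3 of 10 passed, against 21.9%: Junb, Jund and Ier2. The members' median log2 change was 0.07, 0.08 and -0.004 in that order, beside medians of -0.005, -0.005 and -0.006 for all genes. Against untransfected cells, Fos, Junb and Jund passed in all 3 mATXN2 arms. Nr4a1 rose there by 0.29, 0.26 and 0.27 on the log2 scale, with adjusted p of 0.0191, 0.0191 and 0.0151. Egr1 changed by 0.18, -0.19 and -0.13, with adjusted p of 0.0151, 0.0055 and 0.0512. With RfxCas13d mATXN2, Fosb passed (adjusted p = 0.0455) and Klf6 fell by 0.20 (adjusted p = 0.0305). Background shares and alternatives were not computed for these.

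In the NTG arms of RfxCas13d, HiFi-RfxCas13d and DiCas7-11, Jund fell by 0.23, 0.27 and 0.26 on the log2 scale. The adjusted p were 0.00397, 0.000404 and 0.000457, and Jund remained past the threshold in all 18 alternatives of each. Junb rose by 0.30, 0.27 and 0.24 on the log2 scale, with adjusted p of 0.0132, 0.0144 and 0.0301. Its calls were lost without untransfected replicate 2 in all 3 comparisons, with adjusted p of 0.0636, 0.0665 and 0.111. They were also lost without RfxCas13d NTG replicate 2, HiFi-RfxCas13d NTG replicates 1 or 2, untransfected replicate 1 for DiCas7-11 and DiCas7-11 NTG replicate 1, with adjusted p of 0.0585 to 0.153. The Fosb libraries of RfxCas13d NTG read 1.52, 1.62 and 1.74 CPM, above those of untransfected cells, and the log2 change was 1.02 ± 0.29 (SE; adjusted p = 0.0206). With HiFi-RfxCas13d NTG they read 1.17, 1.85 and 1.34 CPM and the log2 change was 0.86 ± 0.29 (SE; adjusted p = 0.0344). DiCas7-11 NTG libraries read 0.804, 1.07 and 1.06 CPM, overlapping with untransfected cells, and Fosb did not pass there, at a log2 change of 0.29 with a 95% interval of -0.35 to 0.93. Each of these Fosb calls was lost when any untransfected library was left out, with adjusted p of 0.0514 to 0.0677 for RfxCas13d and 0.0727 to 0.0928 for HiFi-RfxCas13d. They were lost as well without RfxCas13d NTG replicate 3, with an adjusted p of 0.0649, and without HiFi-RfxCas13d NTG replicates 2 or 3, with 0.183 and 0.053.

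Fos and Jun passed with HiFi-RfxCas13d NTG, at log2 changes of 0.54 ± 0.19 and 0.15 ± 0.05 (SE) and adjusted p of 0.0364 and 0.0426. The Fos call was lost without untransfected replicates 1 or 3 or HiFi-RfxCas13d NTG replicates 1 or 2, with adjusted p of 0.0729 to 0.156. The Jun call was lost without untransfected replicates 2 or 3 or HiFi-RfxCas13d NTG replicate 1, with adjusted p of 0.142 to 0.252. That replicate had the highest Jun of the series, 68.9 CPM. The log2 change of Fos was 0.44 with RfxCas13d NTG, with an adjusted p of 0.143, and 0.38 with DiCas7-11 NTG, with an adjusted p of 0.158. Leaving out a library brought the count of members called with HiFi-RfxCas13d NTG to 2 without untransfected replicates 2 or 3 or NTG replicates 1 or 2, to 3 without untransfected replicate 1 and to 4 without NTG replicate 3. Without untransfected replicate 2 the counts with RfxCas13d NTG and DiCas7-11 NTG were both 1.

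**Figure D3:**
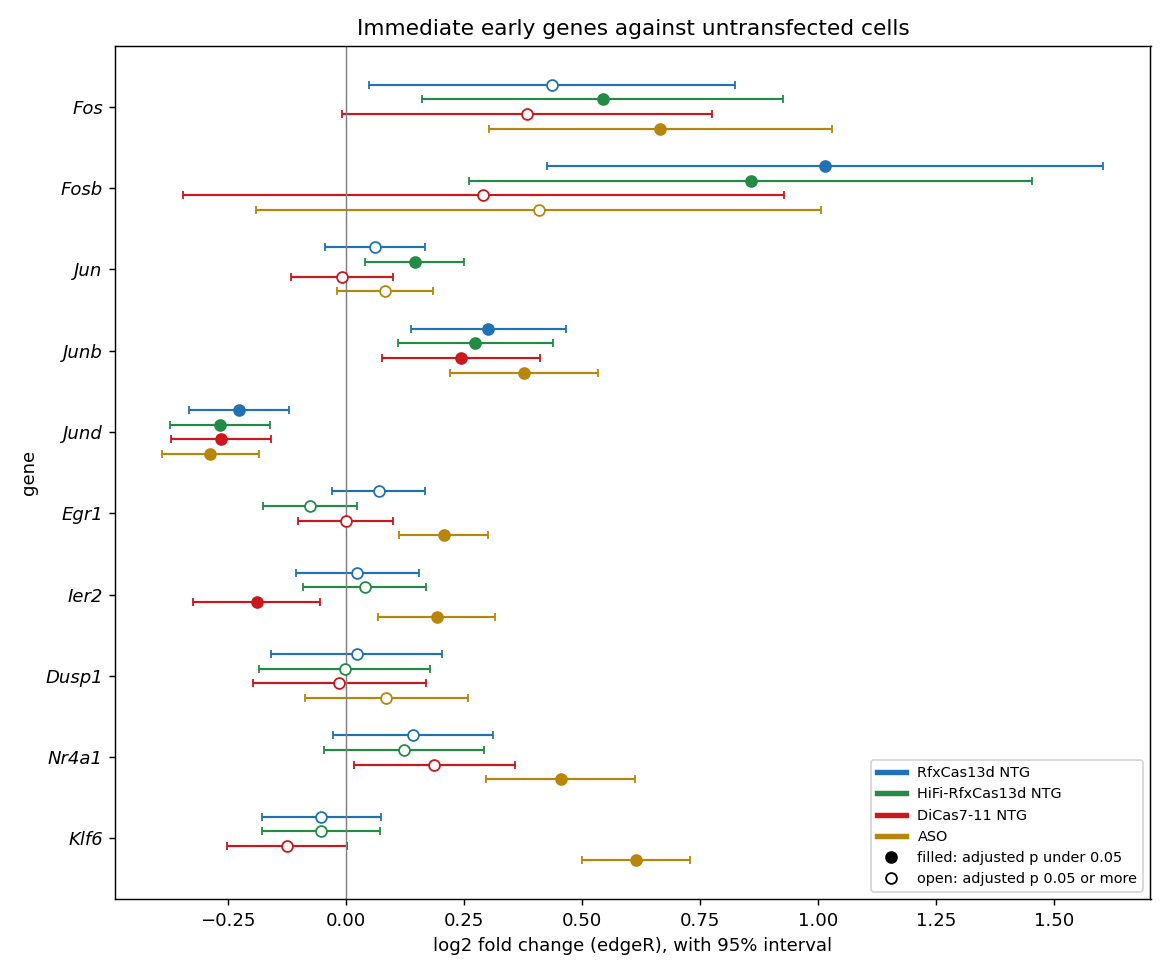
Log2 fold change of each member against untransfected cells for the 3 NTG arms and the ASO, with 95% intervals from edgeR and filled points for an adjusted p under 0.05. Junb lies to the right of 0 and Jund to the left in all 4 comparisons, and Klf6 is filled for the ASO alone, at 0.61.

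The ASO lowered Atxn2 from 123 ± 1.78 CPM to 52.0 ± 2.77 CPM (SD, n = 3) (log2 change -1.25 by edgeR). Against untransfected cells, 7 of 10 members passed, with Fos, Junb, Egr1, Ier2, Nr4a1 and Klf6 higher and Jund lower. The background was 42.7%, since the ASO moved much of the transcriptome. The members' median log2 change was 0.29, against -0.002 for all genes. The median size of the change, regardless of sign, was 0.33 for the members and 0.17 for all genes.

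Klf6, a zinc finger factor induced by injury and growth signals, had the smallest adjusted p. It read 36.8, 35.0 and 33.9 CPM in untransfected cells and 51.1, 55.7 and 55.1 CPM with the ASO. The groups did not overlap, and the ASO libraries also lay above all 18 transfected libraries, which ran from 28.3 to 36.8 CPM. The log2 change was 0.61 ± 0.06 (SE; adjusted p = 4.84e-10), a 1.53-fold rise. Nr4a1 rose from 15.5, 13 and 13.9 CPM to 18.2, 20.2 and 19.8 CPM, with a log2 change of 0.45 ± 0.08 (SE; adjusted p = 2.13e-05). Again no ASO library fell into the untransfected range.

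Egr1, the zinc finger factor that links growth factor and synaptic signals to later transcription, read 66.0, 66.8 and 63.6 CPM in untransfected cells and 76.1, 75.5 and 75.2 CPM with the ASO. This was a log2 change of 0.21 ± 0.05 (SE; adjusted p = 0.000564). Ier2 read 28.6, 28.4 and 29.4 CPM and then 33.9, 30.4 and 34.2 CPM, for a log2 change of 0.19 ± 0.06 (SE; adjusted p = 0.0106). Both genes were higher in every ASO library than in any untransfected one, but the call for Ier2 was lost without ASO replicate 3, with an adjusted p of 0.0548.

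Fos reached 3.48, 4.58 and 4.10 CPM with the ASO, at a log2 change of 0.67 ± 0.18 (SE; adjusted p = 0.00308). Junb reached 29.9, 26.8 and 29.3 CPM, at a log2 change of 0.38 ± 0.08 (SE; adjusted p = 0.00019), and Jund went down to 50.6, 50.3 and 48.1 CPM. Jund fell by 0.29 ± 0.05 (SE) on the log2 scale, with an adjusted p of 2.69e-05. None of these ASO libraries overlapped with the untransfected ones. Apart from Ier2, the 6 calls held in all 18 alternatives. Fosb reached 1.00, 1.00 and 1.21 CPM and did not pass, with an adjusted p of 0.273.

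Whether the ASO group differed from the transfected groups was tested directly, in a comparison added after the data were seen. 4 of 10 members passed, against a background of 41.7%. Klf6 was higher with the ASO than in the mean of the 6 transfected groups by 0.70 ± 0.04 (SE) on the log2 scale, Nr4a1 by 0.24 ± 0.05, Egr1 by 0.23 ± 0.03 and Ier2 by 0.21 ± 0.04. The adjusted p were 2.73e-14, 0.000589, 1.79e-06 and 0.000233, and the 4 calls held in all 31 alternatives. The AP-1 subunits did not pass this test, so a difference in Fos, Fosb, Jun, Junb or Jund between the ASO and the transfected groups was not detected. The ASO libraries were the deepest and their labels name no effector, so the oligonucleotide, the lower Atxn2 and the absence of an effector cannot be told apart.

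Directing the effectors to mATXN2 changed none of the members beyond the threshold. With edgeR, 0 of 10 members passed for RfxCas13d, HiFi-RfxCas13d and DiCas7-11, against backgrounds of 1.39%, 0.295% and 0.942% of all genes, and limma-trend also called 0 for each effector. DESeq2 called 0 as well but gave no adjusted p for some members, Klf6 with RfxCas13d and Ier2 with DiCas7-11 among them. At such backgrounds a count of 0 among 10 genes says little about the members. At an unadjusted p under 0.05 there were 2 members for each effector, while 13.8%, 7.45% and 14% of all tested genes had such a p, against which 2 of 10 is to be read. Atxn2 itself was lower than NTG by 6.87%, 14.8% and 12.96%, with adjusted p of 0.178, 0.00157 and 0.00557, so the targeted transcript passed the test for HiFi-RfxCas13d and DiCas7-11 and not for RfxCas13d. The DiCas7-11 call was lost without NTG replicate 2 or mATXN2 replicate 1, with adjusted p of 0.0707 and 0.059, and with 0.0804 when only the groups compared were fitted.

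**Figure D4:**
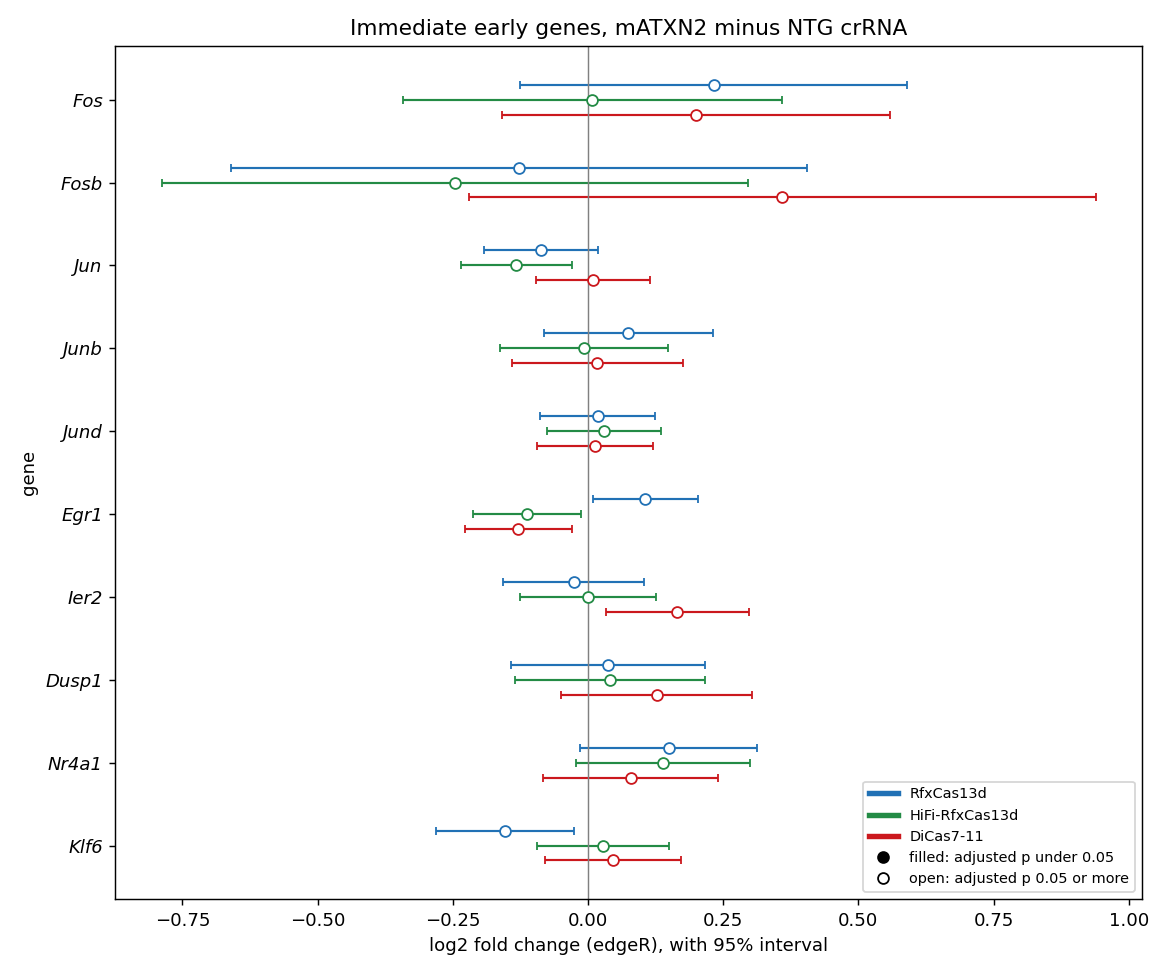
Log2 fold change of each member between the mATXN2 and NTG arms of each effector, with 95% intervals from edgeR. All points are open, since no adjusted p is under 0.05, and the intervals are widest for Fosb, reaching from -0.79 to 0.30 for HiFi-RfxCas13d.

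Egr1 was the member with an unadjusted p under 0.05 for all 3 effectors, and its sign was not shared. With RfxCas13d it read 64.9, 71.4 and 69.7 CPM with NTG and 70.3, 80.3 and 71.1 CPM with mATXN2, and the ranges overlapped. With HiFi-RfxCas13d it read 61.2, 62.8 and 62.3 CPM with NTG and 53.4, 58.6 and 59.9 CPM with mATXN2, without overlap. With DiCas7-11 it read 65.0, 64.8 and 66.7 CPM with NTG and 57.7, 61.9 and 60.4 CPM with mATXN2, also without overlap. The log2 changes were 0.11 ± 0.05, -0.11 ± 0.05 and -0.13 ± 0.05 (SE), with adjusted p of 0.3, 0.59 and 0.204. How often all genes showed such separate ranges was not counted, so the lack of overlap describes these libraries only.

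The difference in response was tested as an interaction. No gene of the 13901 passed in any of the 3 pairs of effectors, a background of 0%, while 855, 1084 and 1028 genes had an unadjusted p under 0.05. Among the members this held for 2, 3 and 0. DESeq2 and limma-trend also called 0 members in each pair, where DESeq2 gave an adjusted p. For Egr1 the difference in response was -0.22 ± 0.07 (SE) on the log2 scale for HiFi-RfxCas13d minus RfxCas13d, with an adjusted p of 0.672, and -0.24 ± 0.07 for DiCas7-11 minus RfxCas13d, with an adjusted p of 0.401.

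The remaining members with an unadjusted p under 0.05 were Klf6, Jun and Ier2. Klf6 read 33.5, 32.7 and 35.6 CPM with RfxCas13d NTG and 33.6, 29.9 and 28.3 CPM with mATXN2, a log2 change of -0.15 ± 0.06 (SE; adjusted p = 0.25). Jun read 68.9, 62.4 and 61.5 CPM with HiFi-RfxCas13d NTG and 58.6, 58.4 and 58.7 CPM with mATXN2, without overlap, a log2 change of -0.13 ± 0.05 (SE; adjusted p = 0.479). Ier2 read 25.7, 23.2 and 26.9 CPM with DiCas7-11 NTG and 27.4, 27.1 and 30.3 CPM with mATXN2, also without overlap, a log2 change of 0.17 ± 0.06 (SE; adjusted p = 0.222). Over all members, the log2 changes ran from -0.15 to 0.23 for RfxCas13d, from -0.25 to 0.14 for HiFi-RfxCas13d and from -0.13 to 0.36 for DiCas7-11, where the lowest value of HiFi-RfxCas13d and the highest of DiCas7-11 were those of Fosb.

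Between effectors, over both arms, 2 members separated. Egr1 was lower with HiFi-RfxCas13d than with RfxCas13d, at a log2 difference of -0.26 ± 0.03 (SE) with an adjusted p of 1.6e-05. It was the single member called of 10 in that comparison, against a background of 3.33%. The 6 HiFi-RfxCas13d libraries ran up to 62.8 CPM and the 6 RfxCas13d libraries from 64.9 CPM, without overlap. Egr1 was also lower with DiCas7-11 than with RfxCas13d, at a log2 difference of -0.19 ± 0.03 (SE; adjusted p = 0.000357), again the single call of 10, against 11.4%. Both calls held in all 22 alternatives. The gaps were wider in the mATXN2 arms, though the interaction did not pass. Group means with RfxCas13d, HiFi-RfxCas13d and DiCas7-11 were 68.7, 62.1 and 65.5 CPM with NTG. With mATXN2 they were 73.9, 57.3 and 59.99 CPM. The DiCas7-11 NTG libraries, from 64.8 to 66.7 CPM, overlapped with those of RfxCas13d NTG, from 64.9 to 71.4 CPM.

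Ier2 was the single call of 10 between DiCas7-11 and HiFi-RfxCas13d, against 7.05%, at a log2 difference of -0.14 ± 0.04 (SE; adjusted p = 0.0444). It held in 8 of 22 alternatives, with adjusted p of up to 0.133, and was lost when any of 9 of the 12 libraries was left out. DiCas7-11 NTG had the lowest Ier2 of the 8 groups, at 25.3 ± 1.90 CPM (SD, n = 3), and was below untransfected cells at a log2 change of -0.19 ± 0.07 (SE; adjusted p = 0.0384). That call held in 10 of 18 alternatives and was lost without any untransfected library or without DiCas7-11 NTG replicate 2, with adjusted p of 0.069 to 0.258. The replicates of DiCas7-11 NTG also differed from each other by 3.41 to 5.78 times counting noise per gene in chi-square, against 1.66 to 2.63 times in the other 7 groups.

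Dusp1, the MAP kinase phosphatase, was the flattest member. Its 24 libraries ran from 12.8 to 16.9 CPM, its group means from 14.3 to 15.6 CPM, and it passed no test. The 95% intervals of its log2 change were -0.09 to 0.26 for the ASO and -0.16 to 0.20, -0.18 to 0.18 and -0.20 to 0.17 for the NTG arms of RfxCas13d, HiFi-RfxCas13d and DiCas7-11 against untransfected cells. It overlaps Ergic1 on the opposite strand, with a mean of 2480 counts a library.

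Other genes of the same pathway were taken from fixed lists. Of the other AP-1 subunits, 6 of 8 were tested, 1 rose with transfection, which is 16.7% against a background of 27.4%, and with the ASO 2 rose and 1 fell, which is 50% against 42.7%. The riser in both was Atf3, a stress-induced member of the ATF family, which went from 9.96 ± 1.42 CPM in untransfected cells to 13.4 to 15.5 CPM in group means after transfection and 13.9 ± 1.32 CPM with the ASO (SD, n = 3). Its log2 change was 0.53 ± 0.08 and 0.47 ± 0.10 (SE), with adjusted p of 1.02e-05 and 0.000264.

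Of 28 other immediate early genes 23 were tested. With transfection 3 rose and 2 fell, which is 21.7% against the background of 27.4%, and with the ASO 8 rose and 5 fell, which is 56.5% against 42.7%. Their median log2 change with the ASO was -0.02. Rhob, a small GTPase of the cytoskeleton, rose with the ASO from 9.92 ± 0.85 to 18.8 ± 1.07 CPM (SD, n = 3), at a log2 change of 0.92 ± 0.09 (SE; adjusted p = 4.1e-09). Ier3, a regulator of survival, fell with the ASO from 22.9 ± 1.72 to 12.3 ± 1.33 CPM, at a log2 change of -0.90 ± 0.09 (SE; adjusted p = 3.56e-09). In the mean of the transfected groups it also fell by 0.32 on the log2 scale, with an adjusted p of 0.000667. A fall was not detected with RfxCas13d, at log2 changes of 0.016 with NTG and -0.073 with mATXN2 (adjusted p = 0.938 and 0.664). In the same order, the changes were -0.41 and -0.46 with HiFi-RfxCas13d (adjusted p = 0.00156 and 0.000386). With DiCas7-11 they were -0.39 and -0.61 (adjusted p = 0.00238 and 1.19e-05).

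All 14 MAPK phosphatases and feedback inhibitors other than Dusp1 were tested, and 1 rose with transfection, which is 7.14% against 27.4%. With the ASO 4 rose and 2 fell, which is 42.9% against 42.7%. Dusp2, a nuclear phosphatase of ERK and p38, rose from 12.7 ± 0.41 CPM in untransfected cells to 19.0 ± 0.88 CPM with the ASO (SD, n = 3) and to group means of 15.5 to 21.3 CPM after transfection. Its log2 change was 0.58 ± 0.09 and 0.51 ± 0.07 (SE), with adjusted p of 5.17e-06 and 7.37e-06. Dusp4, also a nuclear phosphatase, fell by 0.54 ± 0.06 (SE) on the log2 scale with the ASO, with an adjusted p of 1.51e-08.

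Among 25 upstream kinases and transcription factors, 2 rose and 5 fell with transfection, which is 28% against 27.4%, and 6 rose and 12 fell with the ASO, which is 72% against 42.7%. Elk3, an ETS factor that partners SRF, fell with the ASO from 61.3 ± 2.35 to 36.8 ± 5.26 CPM (SD, n = 3), at a log2 change of -0.74 ± 0.07 (SE; adjusted p = 4.77e-10). No gene of the other AP-1, kinase and factor lists passed between mATXN2 and NTG. In the list of other immediate early genes 1 passed with DiCas7-11, which is 4.35% against 0.942%. This was Rhob, higher with mATXN2 with an adjusted p of 0.0398. The Rhob call was lost when only the groups compared were fitted and without DiCas7-11 NTG replicates 2 or 3 or mATXN2 replicates 1 or 3, with adjusted p of up to 0.321. In the list of phosphatases 2 passed with RfxCas13d, 1 higher and 1 lower, which is 14.3% against 1.39%. The higher one was Dusp2, with an adjusted p of 0.0279. The Dusp2 call was lost without RfxCas13d NTG replicates 1 or 2 or mATXN2 replicates 2 or 3, with adjusted p of up to 0.173.

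Lists of genes from other responses were read as well. Of 9 interferon and nucleic acid response genes, 8 rose with transfection, which is 88.9% against 27.4%, and 4 with the ASO, which is 44.4% against 42.7%. Ifit1, which binds foreign RNA, was at 0.088 ± 0.029 CPM in untransfected cells, at 15.5 to 21.1 CPM in the means of the 6 transfected groups and at 1.39 ± 0.28 CPM with the ASO (SD, n = 3). Of 8 tested stress response genes, 1 rose and 2 fell with transfection, which is 37.5% against 27.4%, and 3 rose and 4 fell with the ASO, which is 87.5% against 42.7%. Ddit3, the factor CHOP of the unfolded protein response, rose with the ASO from 30.6 ± 1.19 to 52.2 ± 2.62 CPM, at a log2 change of 0.77 ± 0.06 (SE; adjusted p = 3.02e-11). Between mATXN2 and NTG, 2 genes of the interferon list were lower with RfxCas13d, which is 22.2% against 1.39%. In the stress list 1 was lower with DiCas7-11, which is 12.5% against 0.942%. The Ifit1 call was lost with limma-trend and without RfxCas13d NTG replicates 1 or 3 or mATXN2 replicates 2 or 3, with adjusted p of up to 0.203. The stress call was lost with no filter, with only the groups compared and without DiCas7-11 mATXN2 replicate 3, with adjusted p of up to 0.409. The part of these responses in the changes of the immediate early genes was not tested.

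The genes most like the members over the 24 libraries, by Pearson's r with the mean centred log2 CPM of the 10 members, were Hmox1 at 0.876, Abca1 at 0.848, Dph2 at 0.836, Samhd1 at 0.835 and Psmb10 at 0.829. Without the 3 ASO libraries the coefficients over 21 libraries were 0.792, 0.773, 0.72, 0.8 and 0.707 in the same order. These 24 points share groups, depth and the libraries themselves, and the coefficients are a description.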

How the data were processed

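The 24 RNA-seq libraries of Neuro2A cells formed 8 groups of 3. The authors quantified reads with Salmon 1.5.2 against the NCBI mouse transcriptome (GRCm39) and summed them to genes by the lengthScaledTPM method of tximport; the deposited expected counts carry no correction for library size. Libraries were made with a stranded mRNA kit, and the strand setting of the counting is not given in the sources used here. Expected counts were rounded, genes had to reach 0.5 CPM in 3 or more samples, and edgeR 4.0.16 (R 4.3.3) was fitted to all 24 samples with TMM scaling, the quasi-likelihood test and Benjamini-Hochberg adjustment within each comparison over 13901 genes, at a threshold of 0.05. Alternatives used DESeq2 1.42.0, limma-trend 3.58.1 (prior count 3), other scalings and filters, a transcript length correction, a replicate block and each library left out. Transcript lengths, used for CPM per kb, were those of the longest protein-coding transcript in GENCODE M21. The fits were tested on simulated data.

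The members and gene lists were chosen with earlier results of these data known. Named genes were the 10 members, Atxn2, at most 3 genes a list with the smallest p over the 8 groups, and the 5 genes most like the members. Replicates are separate cultures per the labels.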

Additional observations from a re-analysis of the deposited data

Results flagged for a closer look

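The level of Egr1 over both arms differed between effectors, with a log2 difference of -0.256 for HiFi-RfxCas13d minus RfxCas13d and -0.188 for DiCas7-11 minus RfxCas13d, by edgeR's test of the difference. The level of Ier2 differed by -0.145 on the log2 scale for DiCas7-11 minus HiFi-RfxCas13d, by the same test, with an adjusted p of 0.0444. For Egr1 the DiCas7-11 NTG libraries, from 64.8 to 66.7 CPM, overlapped with those of RfxCas13d NTG, from 64.9 to 71.4 CPM. With mATXN2 they ran from 57.7 to 61.9 CPM and from 70.3 to 80.3 CPM in that order, without overlap.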

How the results depend on the processing

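Member changes with an unadjusted p under 0.05 were recomputed under the alternatives, and none of these reversed. The replicate numbers did not pair the samples: deviations of same-numbered samples correlated at -0.111 to 0.245. With the replicate block, 3, 5 and 3 members were called for the 3 NTG arms against untransfected cells, 7 for the ASO and 5 for the mean of the 6 transfected groups, as without it. For HiFi-RfxCas13d NTG against untransfected cells, the 5 members called became 3 with no filter on low counts, 3 with DESeq2 and 2 when only the groups compared were fitted. For DiCas7-11 NTG, 3 became 1 in that last fit. For DiCas7-11 minus HiFi-RfxCas13d, 1 became 0 with library size only, with no filter, with DESeq2, with only the groups compared and with the length correction. DESeq2 gave no adjusted p for Fosb in the HiFi-RfxCas13d and RfxCas13d NTG comparisons, nor for some members between mATXN2 and NTG, and these were left out, so its 3 calls for HiFi-RfxCas13d NTG exclude Fosb. Leaving out each library gave 1 to 3 members for RfxCas13d NTG, 2 to 4 for HiFi-RfxCas13d NTG, 1 to 3 for DiCas7-11 NTG, 6 to 8 for the ASO, 2 to 5 for the mean of the 6 transfected groups, 0 to 1 for DiCas7-11 minus HiFi-RfxCas13d and 5 to 8 over the 8 groups. The shares of all genes called in these fits are not given beside the counts, and the causes were not tested. Scalings moved the median of all genes to at most 0.0415 on the log2 scale. Low counts limit Fos and Fosb.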
